A study of Mus musculus with 4 samples.

Results

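Liver RNA of the diet-induced obese (DIO) mice that lost less weight under intranasal GALP was compared with liver RNA of saline-treated DIO mice. GALP (galanin-like peptide) is a hypothalamic neuropeptide that lowers food intake and raises energy expenditure when it reaches the brain. The 2 arrays labelled as the less weight loss group were taken from the 4 arrays of the series, and all genes with signal on both were described. Of 26573 genes on the array, 11526 (43.4%) were kept because a probe was well above background in at least 1 channel on both arrays.

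The mice were male C57BL/6J animals, bought at 8 weeks of age, that weighed at least 40 g after 14 weeks on a high-fat diet. GALP mice received porcine GALP (1-60), given as 1 nmol in saline with 5% α-cyclodextrin, in a volume of 2 µL through the naris once a day for 11 days, and the control mice received saline. All mice were acclimatized before dosing, for 2 weeks by the labels, whereas the methods describe 1 week of daily intranasal saline. RNA of 4 GALP mice with less weight loss was pooled and hybridised against a pool of 8 saline mice on both arrays, with the dyes exchanged (GALP in Cy5 on the first array, GALP in Cy3 on the second). A further 4 GALP mice with greater weight loss formed a second pool on the other 2 arrays, and the mice were grouped by an outcome of the treatment and not at random. The labels also give the control channel a weight loss group, whereas the methods describe 1 control pool. Each pool is 1 sample, so no test was possible and no p-value is given. Both arrays carried the same extracts, and their difference measures technical error only. Each gene is given as a log2 ratio of GALP over control, first on the array with GALP in Cy5 and then on the array with GALP in Cy3. The greater weight loss pool was measured against the control as well, and its values are set beside those of the less weight loss pool only as a description.

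The liver makes and exports lipids, clears hormones and drugs, and stores metals. Lipid and sterol synthesis are driven by the SREBP transcription factors under insulin and cholesterol, fat burning by PPARα, and the difference between male and female mouse liver by the pattern of growth hormone release through STAT5. Stress reaches the liver through glucocorticoids, which act on their receptor and, with zinc, induce the metallothioneins.

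A gene was counted as higher when its ratio was over 1.5 and as lower when it was under 0.75 on each of both arrays. By this rule 98 genes (0.85% of those kept) were higher and 238 (2.06%) were lower in the less weight loss pool than in the control pool. These counts are not symmetric in fold, and with 1.5-fold each way 98 genes were higher and 129 lower. A 2-fold difference on both arrays was reached by 16 genes upward and by 51 downward. The median log2 ratio of all 11526 genes was −0.01. Over all of them the arrays shared the sign for 51.0% of genes, with a Pearson r of 0.28 and a Spearman rho of 0.10 across genes, which are not independent replicates, and 143 genes were past the fold in opposite directions. The median half-difference between the arrays was 0.20 for the dimmest of 4 equal classes of genes by signal and 0.08 for the brightest, on the log2 scale. A single array alone would have given 509 genes higher and 660 lower (GALP in Cy5) or 300 higher and 1274 lower (GALP in Cy3).

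**Figure D1:**
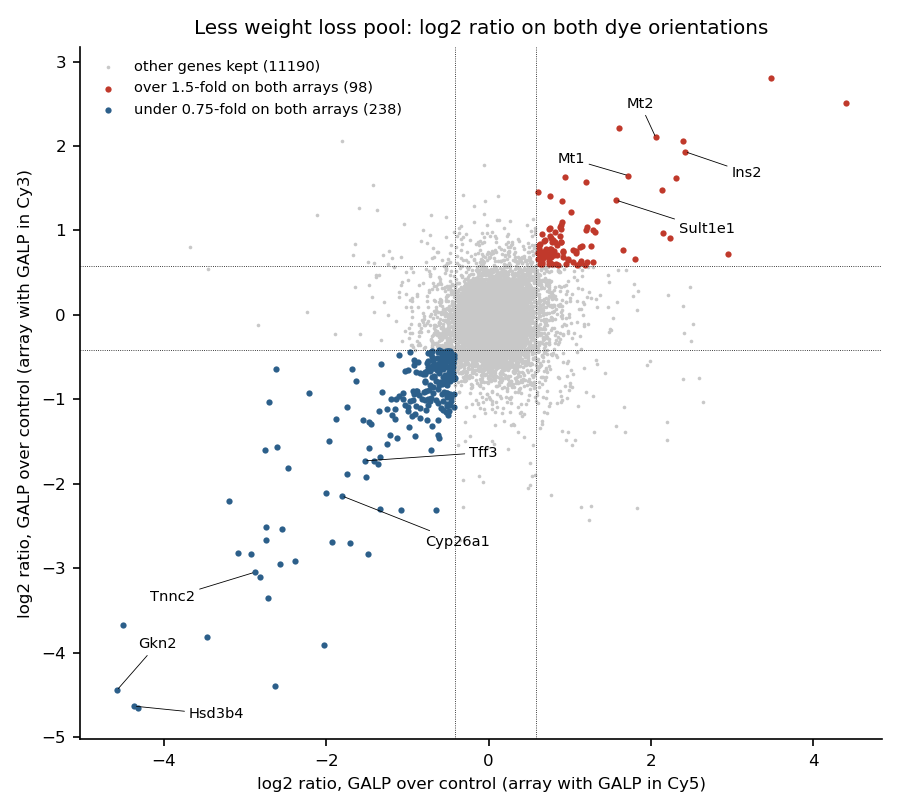
Each point is 1 of 11526 genes, with its log2 ratio of GALP over control on the array with GALP in Cy5 (x axis) and on the array with GALP in Cy3 (y axis); dotted lines mark 1.5-fold and 0.75-fold. The 98 higher genes (red) and 238 lower genes (blue) lie in opposite corners, and most other genes form a cloud around 0 with no clear slope.

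The label of the tissue was checked first. Of 12 hepatocyte markers, the 10 that were measured were well above background in both channels of both arrays, and their summed signal was 340769 and 335122 in the control pool and 322303 and 318122 in the GALP pool. Their median log2 ratio was 0.04, and 1 of them, Tat, was lower. Kupffer cell markers (12 measured, median 0.27, none past the fold), sinusoidal endothelium (12, median 0.08, Lyve1 higher) and stellate cell markers (8 kept, median 0.19) were present on both sides. In bulk RNA, fewer cells of a type and less RNA per cell cannot be told apart. Markers of the adrenal gland and the kidney were near background, with 1 gene kept in each list.

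Genes of pancreas, stomach and skeletal muscle were measured in these liver pools as well, and they made up many of the largest ratios. All 10 pancreas markers kept, of 12 listed, were higher in the less weight loss pool (against 0.85% of all genes). The median was 0.84. Their summed signal was 110584 and 102747 in the control pool, 190158 and 193246 in the less weight loss pool, and 12264 and 8457 in the greater weight loss pool. Thus the control held pancreas RNA too, and the less weight loss pool held the highest level of the 3 pools. Glucagon (Gcg) was not well above background on either side.

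Ins2, which encodes insulin, had the largest ratio among the genes measured on both sides. Its signal was 199 and 225 in the control pool and 1066 and 849 in the GALP pool, giving log2 ratios of 2.42 and 1.93. In the greater weight loss pool Ins2 was not well above background on either array, so no exact ratio is given there. Ins1, the second insulin gene, had values of 2.40 and 2.06, with the control above background on 1 of 2 arrays. The secretory granule protein Sycn (0.90 and 1.34) and the elastase Cela3b (0.87 and 1.04) were among the 15 largest higher genes too. Trypsin Prss2 (0.70 and 0.88) and carboxypeptidase Cpa1 (0.63 and 0.84) were past the fold by less.

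Stomach and intestine markers moved in both directions. Of 8 kept from 14 listed, 2 were higher (against 0.85% of all genes) and 5 were lower (against 2.06%). The gastric peptides Tff2 (0.68 and 0.68) and Gkn3 (0.66 and 0.74) were higher. Gkn2, a gastrokine of the stomach surface, had a signal of 269 and 232 in the control pool and was not well above background in the GALP pool, which makes it at least 6.77-fold lower. Tff1, a trefoil factor of the stomach, had signals of 339 and 368 in the control pool, was also not well above background in the GALP pool and was at least 9.18-fold lower. Tff3, the intestinal trefoil factor, had signals of 300 and 234 in the control pool and of 104 and 70.8 in the GALP pool, with log2 ratios of −1.52 and −1.73. Tff3 stood above the control in the greater weight loss pool, with a mean of 1.42. The intestinal defensins Defa1 (−1.69 and −0.65) and Defa20 (−1.74 and −1.88, with GALP above background on 1 of 2 arrays) were lower as well. Of 7 kept genes in the list of defensins, gastrokines and trefoil factors, 6 were lower (against 2.06% of all genes). The list was made of genes that the study named from arrays of this series, so this count adds no support. Of the 7, 2 were well above background in both channels of both arrays, so no median is given. The brightest probe of Defa3 was not past the fold (−0.30 and −0.59), whereas its other probe was (mean −2.20, with GALP above background on 1 of 2 arrays).

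Skeletal muscle genes were lower in the less weight loss pool. Of 10 markers kept from 11 listed, 9 were lower (against 2.06% of all genes) and none was higher, with a median of −2.37. Of these 10, 5 were well above background in both channels of both arrays, so the median includes values taken against background. Their summed signal was 6738 and 6505 in the control pool against 1103 and 1323 in the less weight loss pool. In the greater weight loss pool it was 8654 and 7115, beside 7184 and 5635 for the control on the same arrays, and the median of the 10 markers there was 0.33. The calcium sensor Tnnc2 of fast muscle had signals of 1793 and 1593 in the control pool and of 244 and 193 in the GALP pool, a log2 ratio of −2.88 and −3.05. Tnni2 (−2.55 and −2.54), Tnnt3 (−2.92 and −2.84), Myl1 (−3.09 and −2.82) and Acta1 (−2.38 and −2.92), which encode troponins, a myosin light chain and muscle actin, were lower by similar sizes. Of the 15 largest lower genes, 10 belonged to muscle by these markers or by their known role, the others being Myh2, Cox8b, Fabp3, Mb and Cox6a2. The part of other tissues in the liver results that follow was not tested. None of the genes in the metabolic lists below is in the pancreas, stomach or muscle lists.

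**Figure D2:**
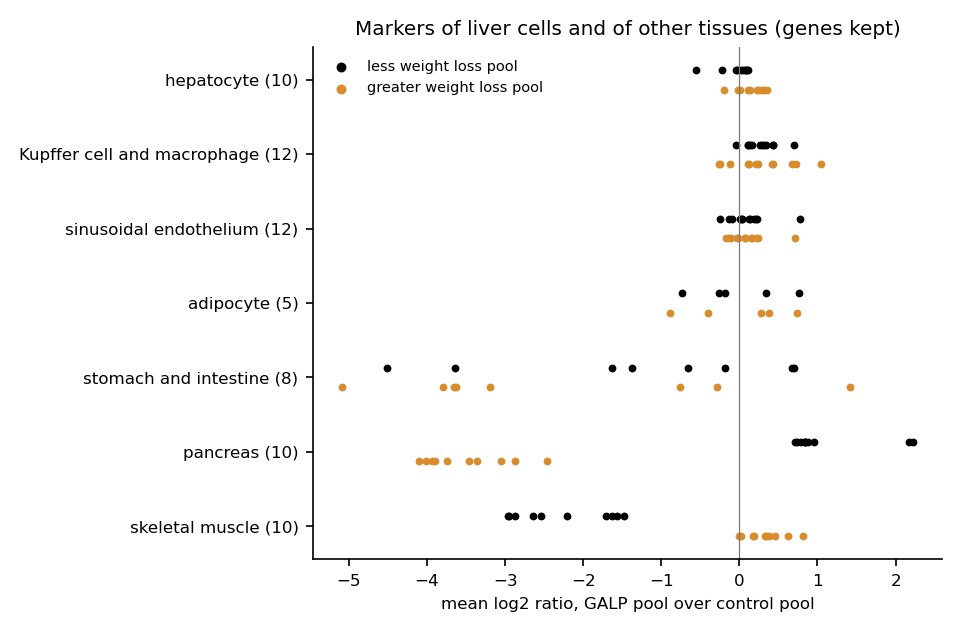
Mean log2 ratio of GALP over control (x axis, 2 arrays averaged) of each kept marker gene of liver cells and of other tissues, with the number of genes kept in brackets. Black points are the less weight loss pool and orange points the greater weight loss pool. Hepatocyte markers lie near 0 in both, while pancreas markers lie above 0 in the less weight loss pool and below 0 in the greater one, and muscle markers lie below −1 in the less weight loss pool. Points of genes at background on 1 side are drawn at their measured ratio.

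The metallothioneins Mt1 and Mt2 came next to Ins2 among the largest higher genes measured on both sides. They encode small proteins that bind zinc and copper, and they sit next to each other on chromosome 8. Mt2 had signals of 15936 and 14727 in the control pool and of 66429 and 63196 in the GALP pool. Its log2 ratios were 2.06 and 2.10, a 4.23-fold higher level. Mt1 had signals of 10745 and 9687 in the control pool and of 35365 and 30402 in the GALP pool, with log2 ratios of 1.72 and 1.65, or 3.22-fold. For each gene both signals in the GALP pool were above both in the control pool. In the greater weight loss pool the log2 ratios were 0.88 and 0.86 for Mt1 and 0.99 and 0.82 for Mt2. The probes lie at chr8:96704011-96704070 (Mt1) and chr8:96697371-96697430 (Mt2) on mm9.

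The promoters of both genes are shown because they moved together and because metal induction of this pair is known to act through metal response elements. The windows are those of RefSeq on GRCm38.p6, from 250 bases before to 50 after the annotated start, on the plus strand, at chr8:94178839-94179138 for Mt1 and chr8:94172368-94172667 for Mt2. Capitals mark each match to the 7-base pattern TGCNCNC on either strand, which is looser than the metal response element core TGCRCNC (R is A or G).
Mt1: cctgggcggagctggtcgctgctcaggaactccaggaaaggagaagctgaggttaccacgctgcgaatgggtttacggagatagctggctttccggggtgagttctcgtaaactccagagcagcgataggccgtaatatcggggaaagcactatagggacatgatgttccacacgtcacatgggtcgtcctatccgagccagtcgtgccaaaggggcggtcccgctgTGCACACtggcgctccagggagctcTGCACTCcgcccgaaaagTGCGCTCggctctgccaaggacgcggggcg
Mt2: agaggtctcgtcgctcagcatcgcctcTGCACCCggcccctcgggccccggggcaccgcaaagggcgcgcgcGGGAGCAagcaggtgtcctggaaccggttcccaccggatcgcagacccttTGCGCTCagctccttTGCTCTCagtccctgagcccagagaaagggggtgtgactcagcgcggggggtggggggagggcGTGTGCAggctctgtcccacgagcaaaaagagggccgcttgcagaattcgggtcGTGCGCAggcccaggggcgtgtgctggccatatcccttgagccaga
The Mt1 window held 3 matches, all on the plus strand, and the Mt2 window held 6, of which 3 were on the other strand, with no overlap between matches. In Mt2, GGGAGCA and TGCTCTC fit only the looser pattern. The counts are for these windows and not for the whole promoters. At least 1 match is in 53.6% of the windows of 27025 genes, at least 3 in 8.04% and at least 6 in 0.263%. A match is a description of the letters and not evidence of binding.

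The other genes that handle zinc were not higher. Of 12 kept genes of metallothioneins and zinc transport, Mt1 and Mt2 were the only ones that were higher (against 0.85% of all genes). In this list 1 gene was lower (against 2.06%), and the median was 0.02. The zinc exporter Slc30a1, which zinc is known to induce, had values of 0.05 and −0.21, and the importer Slc39a4 had values of 0.24 and 0.25. The lower gene was Slc30a10, a manganese exporter, at −1.19 and −1.18 (greater weight loss pool: −1.13 and −0.76).

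Glucocorticoid receptor targets gave a mixed picture. Of 21 kept, 4 were higher and 1 was lower, with a median of 0.14, against 0.85% and 2.06% of all genes. Mt1 and Mt2 are in this list too. Fkbp5, a chaperone of the receptor that the hormone induces, had signals of 243 and 265 in the control pool and of 559 and 532 in the GALP pool, a log2 ratio of 1.20 and 1.01. Of its other probes, 1 was past the fold and 1 was not (1.12 and 0.13). Map3k6, a stress kinase, was at 0.94 and 1.63 with the control above background on 1 of 2 arrays, and its other probe had opposite signs on the arrays (−0.23 and 2.20). Tat, a tyrosine-degrading enzyme that glucocorticoids induce, was lower (−0.43 and −0.69), and Tsc22d3 (mean −0.21), Per1 (mean 0.15) and Igfbp1 (mean 0.05) were not past the fold.

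The lowest ratios of liver genes were in 3β-hydroxysteroid dehydrogenases, which convert steroids, namely Hsd3b4 and Hsd3b5, counted here as male-biased liver genes. Hsd3b4 had signals of 1968 and 2107 in the control pool and of 95.9 and 84.9 in the GALP pool, with log2 ratios of −4.36 and −4.63, or 22.6-fold lower. Hsd3b5 had signals of 798 and 718 in the control pool, and in the GALP pool it was well above background on 1 of 2 arrays (log2 ratios −4.32 and −4.65). Hsd3b1, also above background on 1 of 2 arrays in the GALP pool, was at −1.41 and −1.73. The greater weight loss pool was lower than the control by less, at −1.78 and −1.80 for Hsd3b4 and at −1.81 and −1.70 for Hsd3b5. These genes lie near each other on chromosome 3, at chr3:98303072-98303131 (Hsd3b4), chr3:98422848-98422907 (Hsd3b5) and chr3:98656330-98656389 (Hsd3b1) on mm9. They are close copies, so a probe may bind more than 1 of them. The Hsd3b4 and Hsd3b5 probes themselves share 21 of 59 aligned bases. Likeness between probes does not show whether a probe binds the transcript of the other gene. Another member of the family, Hsd3b7, had a brighter signal (mean 47841) and was not past the fold (−0.40 and −0.44).

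The steroid list as a whole did not shift in 1 direction. Of 14 kept, 4 were lower (against 2.06% of all genes) and 1 was higher (against 0.85%), and the median was −0.18. Srd5a1, the 5α-reductase, was lower at −0.48 and −0.70, and of its other probes 1 was past the fold and 1 was not. Sult1e1, the estrogen sulfotransferase, was the higher one. Its signals were 116 and 116 in the control pool and 344 and 296 in the GALP pool, with log2 ratios of 1.57 and 1.36. Hsd11b1, which reactivates glucocorticoids, had values of 0.13 and −0.05, and Akr1c6 had values of −0.03 and −0.35.

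Male-biased liver genes were lower and female-biased ones higher as lists. Both lists, like the others, were chosen with earlier results of these data known, so the counts are a description. Of 22 male-biased genes kept, 13 (against 2.06% of all genes) were lower and none was higher, with a median of −0.59. Of 17 female-biased genes kept, 4 (against 0.85%) were higher and none was lower, and all 17 had a mean above 0, with a median of 0.54. All mice were male. The medians in the greater weight loss pool were −0.19 and 0.33. Hsd3b4, Hsd3b5, Elovl3, Cyp7b1 and a further lower bile acid gene are in the male-biased list as well as in a metabolic list. Acot3 is in the female-biased list and among the PPARα targets.

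Among the male-biased genes Moxd1, a copper enzyme, had signals of 174 and 148 in the control pool, was not well above background in the GALP pool, and was at least 4.36-fold lower. Mup1, an abundant urinary pheromone carrier, had signals of 59289 and 46855 in the control pool and of 27031 and 23476 in the GALP pool (mean log2 ratio −1.07), and Mup3 was at −0.69 and −0.61. Mup genes are near-identical copies that a probe may not tell apart. Bcl6, a repressor that opposes STAT5, was at −0.98 and −1.32, whereas in the greater weight loss pool it was at 0.27 and 0.05. Cyp4a12a (−0.67 and −0.63) and Cyp7b1 (−0.61 and −0.58) were lower too. Gstp1 (−0.34 and −0.41) and Cyp2d9 (−0.33 and 0.02) were not past the fold, and Dsg1c stood above 0 (mean 0.79).

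Among the female-biased genes the acyl-CoA thioesterase Acot3 had log2 ratios of 1.32 and 0.98 and the monooxygenase Fmo2 had 0.61 and 1.46, although the second probe of Fmo2 was not past the fold. The anion transporter Slc22a26 was not well above background in the control pool and was at least 2.06-fold higher. For Cyp2a4, Cyp2b9 and Cyp2b13 the brightest probe was not past the fold (means 0.58, 0.65 and 0.70), whereas other probes were, at up to a mean of 1.23 for Cyp2b13. These cytochromes P450 are close copies of one another. Cyp3a41a was near 0 (0.07 and 0.17).

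The growth hormone and IGF list stayed near 0. Of 17 kept, 1 was higher (against 0.85% of all genes) and 2 were lower (against 2.06%), with a median of −0.01. Cish, an inhibitor that STAT5 induces, had signals of 504 and 410 in the control pool and of 783 and 682 in the GALP pool (0.64 and 0.73). Cish was at −0.34 and 0.03 in the greater weight loss pool. Bcl6, which belongs to this list too, and Igfbp5 (−0.57 and −0.55) were the lower ones. Igf1 (−0.04 and −0.13) and the receptor Ghr (0.16 and −0.18) did not pass the fold.

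**Figure D3:**
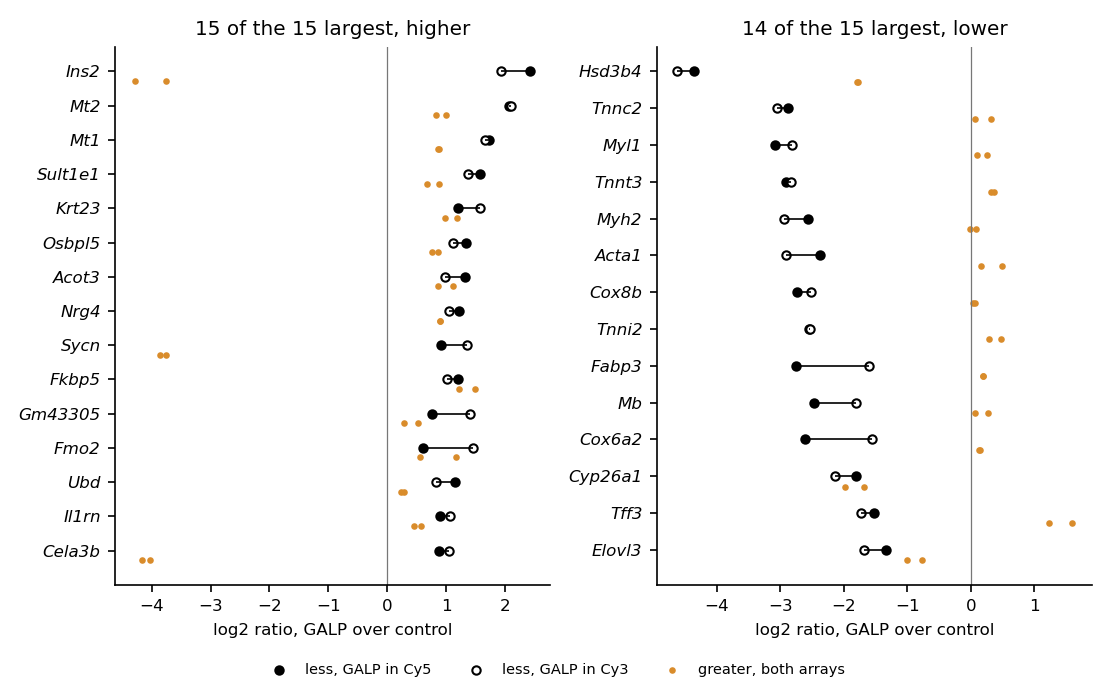
Log2 ratio of GALP over control (x axis) for the largest higher and lower genes that were well above background in both channels of both arrays. Black and open circles are the arrays with GALP in Cy5 and in Cy3 of the less weight loss pool, joined by a line, and orange points are both arrays of the greater weight loss pool. Mt1, Mt2 and Hsd3b4 lie on the same side of 0 in both pools, and Ins2, Sycn, Cela3b, Tff3 and the muscle gene Tnnc2 do not. The points of Ins2 in the greater weight loss pool are taken against background.

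Genes of fatty acid and triglyceride synthesis were lower. Of 22 kept, 7 were lower (against 2.06% of all genes) and none was higher, 20 had a mean below 0, and the median was −0.29. The greater weight loss pool had a median of −0.21. Fasn, the fatty acid synthase, had signals of 46639 and 42672 in the control pool and of 22851 and 20380 in the GALP pool, a log2 ratio of −1.03 and −1.07, or 2.07-fold lower. The pair of values in the GALP pool lay below the pair in the control pool.

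The steps on either side of Fasn were lower as well. Acly, which makes cytosolic acetyl-CoA, was at −0.78 and −0.70, and Acaca, which makes malonyl-CoA, was at −0.59 and −0.42. Of the elongases, Elovl3 had the largest difference (−1.34 and −1.68), Elovl6 was at −0.54 and −0.52, and Elovl5 was at −0.34 and −0.68. The brightest probe of Elovl5 was not past the fold, whereas its other probe was (mean −0.47). Gpam, the first step of glycerolipid synthesis, was at −0.64 and −0.79, and Srebf1, the transcription factor of the pathway, was at −0.61 and −0.42. Dgat2, the last step of triglyceride synthesis, was not lower (0.35 and 0.14), and the desaturase Fads1 was near 0 (−0.12 and 0.04).

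Sterol synthesis genes were lower as well. All 24 listed genes were kept, of which 4 were lower (against 2.06% of all genes) and none was higher, 22 had a mean below 0, and the median was −0.30. The median in the greater weight loss pool was −0.40. Mvd, the mevalonate decarboxylase, had signals of 614 and 518 in the control pool and of 295 and 261 in the GALP pool (−1.06 and −0.99). Insig1, a sterol sensor that retains SREBP, was at −0.81 and −0.70.

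Cyp51, a demethylase, was at −0.51 and −0.73, and neither of its other probes was past the fold. The second probe of Sc5d was lower (mean −0.84), whereas its brightest was not (−0.40 and −0.46). Among the brightest members Msmo1 (−0.40 and −0.27) and Hmgcs1 (−0.49 and −0.37) were below 0 without passing the fold.

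Fat oxidation held no gene past the fold. Of 21 kept genes of fatty acid oxidation and ketogenesis none was called, and the members ranged from −0.09 to 0.33 with a median of 0.06. The abundant enzymes Acadvl (0.01 and 0.10) and Bdh1 (0.17 and 0.04) stood near 0.

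PPARα targets leaned upward. Of 19 kept, 3 were higher (against 0.85% of all genes) and 1 was lower (against 2.06%), 16 had a mean above 0, and the median was 0.34 (greater weight loss pool: 0.21). Acot1, which cleaves long-chain acyl-CoA in the cytosol, had signals of 5420 and 5061 in the control pool and of 8964 and 8349 in the GALP pool (0.73 and 0.72), and its neighbour Acot3 is given above. Plin4, a lipid droplet coat protein that is abundant in fat tissue, was at 0.89 and 1.02, against 0.15 and 0.49 in the greater weight loss pool. Fgf21, a liver hormone of fasting, was lower at −0.58 and −0.52. Cyp4a14 (0.32 and 0.19) and Angptl4 (0.57 and 0.17) were not past the fold.

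The markers of fat cells are given beside this list because they include some of its genes. Their summed signal was 62556 and 46209 in the control pool and 61256 and 53271 in the GALP pool, Plin1, Lep and Retn were at background on both sides, and Cfd was lower (−0.51 and −0.97). Their part in the PPARα list was not tested.

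Carbohydrate and amino acid genes were mostly near 0. Of 18 glycolysis, gluconeogenesis and glycogen genes kept, 1 was lower (against 2.06% of all genes), and the median was 0.01. It was Ppp1r3g, a glycogen-targeting subunit of protein phosphatase (−0.46 and −1.02). Of 19 genes of amino acid catabolism and the urea cycle kept, Tat was the only one past the fold (lower, against 2.06%). Their median was 0.08.

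Of 17 genes of the insulin and fasting response kept, 3 were lower (against 2.06% of all genes), namely Srebf1, Fgf21 and Enho. The median was −0.06. Enho, which encodes the peptide adropin, had signals of 2323 and 2216 in the control pool and of 1575 and 1579 in the GALP pool (−0.56 and −0.49). Enho in the greater weight loss pool stood at 0.78 and 0.78, on the other side of the control. Glucose-6-phosphatase (G6pc) was at −0.39 and −0.38. Apolipoproteins and lipoprotein assembly held no gene past the fold among 16 kept, and ranged from −0.28 to 0.17.

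Of 16 bile acid genes kept, 3 were lower (against 2.06% of all genes), with a median of −0.15. Cyp7b1 and the lower gene not named here are in the male-biased list too, so this count is not separate from the one there. Cyp7b1, the enzyme of the alternative route of bile acid synthesis, was at −0.61 and −0.58, and Nr0b2, the repressor SHP that bile acids induce, was at −0.43 and −0.75. The uptake carrier Slco1b2 was at −0.04 and −0.29. Of 15 retinoid genes kept, Cyp26a1 was the one past the fold (lower, against 2.06%). It degrades retinoic acid, which induces it. Its signals were 370 and 400 in the control pool and 106 and 90.5 in the GALP pool, with log2 ratios of −1.80 and −2.14, and in the greater weight loss pool its values were −1.69 and −1.98.

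**Figure D4:**
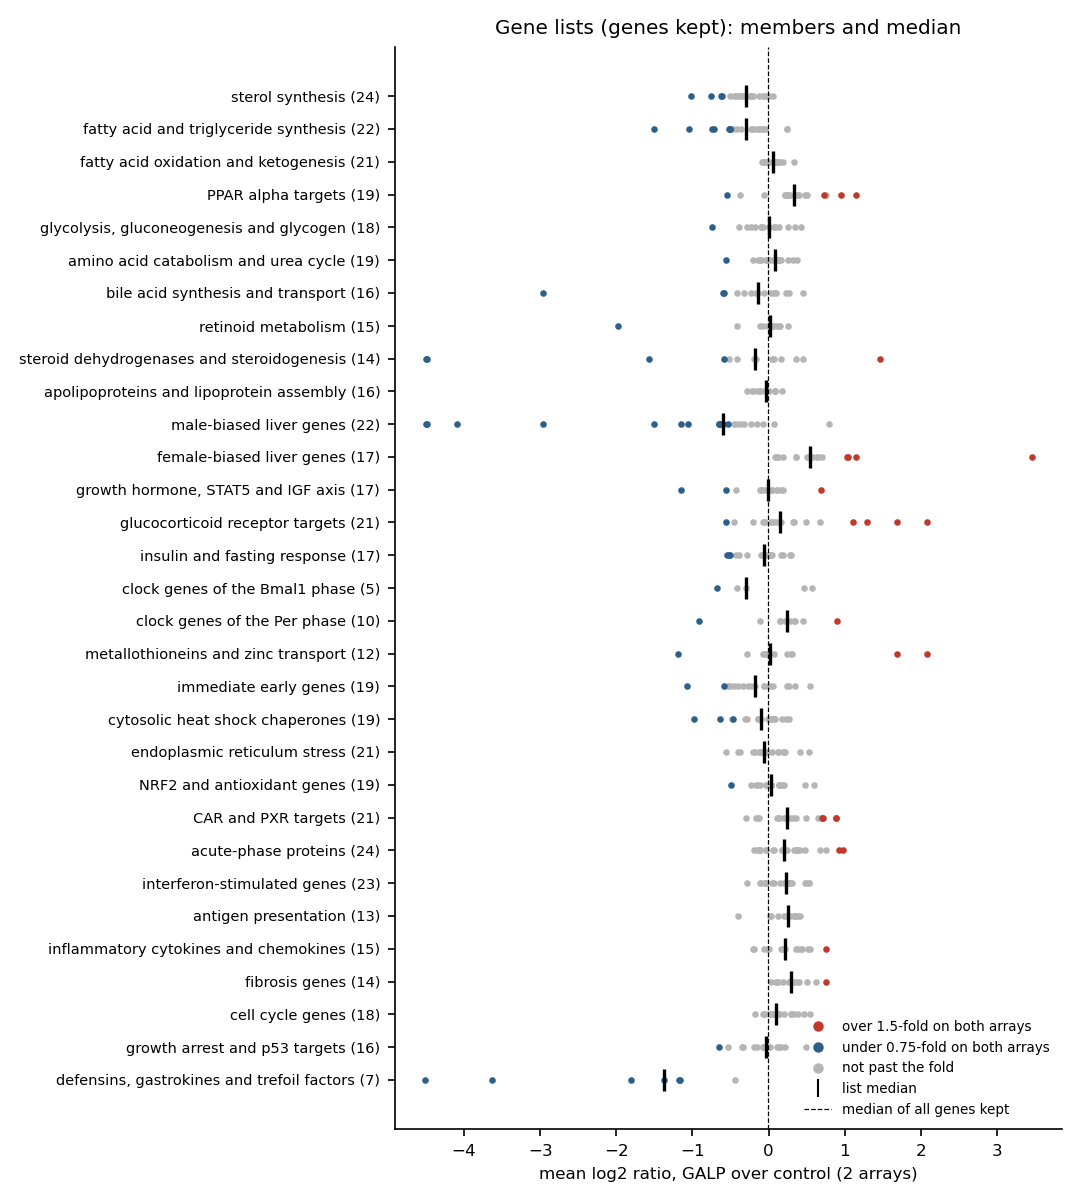
Mean log2 ratio of GALP over control (x axis) of each kept member of the gene lists in the less weight loss pool, with the number of genes kept in brackets. Red and blue points are past the fold on both arrays, grey points are not, and the black bar is the median of the list. The median of the male-biased list lies at −0.59 and that of the female-biased list at 0.54, against −0.01 for all genes (dashed line).

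Targets of the xenobiotic receptors CAR and PXR leaned upward, with 4 of 21 kept higher (against 0.85% of all genes), none lower and a median of 0.24. Por, which passes electrons to all microsomal P450 enzymes, had signals of 4931 and 4931 in the control pool and of 9143 and 9004 in the GALP pool (0.89 and 0.87), and was at 0.88 and 0.89 in the greater weight loss pool. Alas1, the first step of haem synthesis, was at 0.73 and 0.69, Cyp2a5 at 0.75 and 0.64, and Cyp2b10 at 1.14 and 0.64. The second probe of Alas1 was not past the fold (0.56 and 0.76). Cyp3a11, a classical PXR target, was at 0.11 and 0.29.

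No gene of the immediate early, chaperone, endoplasmic reticulum stress, antioxidant or growth arrest lists was higher. Of 19 immediate early genes kept, 2 were lower (against 2.06% of all genes), namely the nuclear receptor Nr4a1 (−0.94 and −1.20) and the transcription factor Klf4 (−0.42 and −0.75). Of 19 cytosolic heat shock chaperones kept, 3 were lower (against 2.06% of all genes). They were Hspa1a (−0.84 and −1.11), Hspa1b (−0.74 and −0.55, with GALP above background on 1 of 2 arrays) and Dnajb1 (−0.42 and −0.51), whose other probe was not past the fold. Hspa1a and Hspa1b are near-identical copies.

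None of 21 endoplasmic reticulum stress genes was past the fold (median −0.06). Of 19 NRF2 and antioxidant genes 1 was lower (against 2.06% of all genes), namely Gclc, which limits glutathione synthesis (−0.50 and −0.48). Of 16 growth arrest and p53 targets 1 was lower (against 2.06%), namely Gdf15, a stress hormone (−0.56 and −0.74).

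Clock genes were few, and those past the fold stand beside 0.85% higher and 2.06% lower of all genes. Of 5 kept genes that peak with Bmal1, Arntl, which encodes BMAL1, was lower (−0.74 and −0.62, with GALP above background on 1 of 2 arrays). Of 10 kept genes of the Per phase, Usp2 was higher (0.75 and 1.03) and Nr1d1, the repressor REV-ERBα, was lower (−0.93 and −0.90). Nr1d1 was at 0.10 and −0.41 in the greater weight loss pool. Dbp had values of 0.18 and 0.24. The time of day of sampling is not given in the sources used here.

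Immune genes were slightly above 0 with few past the fold. Of 24 acute-phase genes kept, 2 were higher (against 0.85% of all genes), and the median was 0.21. The higher ones were Orm3 (1.21 and 0.63) and Il1rn, the interleukin 1 receptor antagonist (0.89 and 1.07). The abundant acute-phase proteins Hp (0.15 and 0.21) and Fgb (−0.13 and −0.10) were not past the fold. Of 15 cytokine and chemokine genes 1 was higher (against 0.85%), namely Vcam1, which binds leukocytes to endothelium (0.77 and 0.73).

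None of 23 interferon-stimulated genes (median 0.23), 13 antigen presentation genes (median 0.26) or 18 cell cycle genes (median 0.09) was past the fold. Of 14 fibrosis genes 1 was higher (against 0.85% of all genes), namely Mmp2, a gelatinase (0.77 and 0.73). For Mmp2 the control was above background on 1 of 2 arrays. All 14 fibrosis genes had a mean above 0, and the median was 0.30. The Kupffer cell markers moved beside these lists, with 11 of 12 above 0 and a summed signal of 46537 and 44747 in the control pool and of 54942 and 52188 in the GALP pool. Their part was not tested.

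Several of the largest higher genes belong to none of the metabolic lists. Krt23, a keratin of the bile duct list, had signals of 827 and 587 in the control pool and of 1901 and 1743 in the GALP pool (1.20 and 1.57). It was the only higher one of 7 bile duct markers kept, and the duct markers Epcam, Cftr and Muc1 were at background on both sides. Osbpl5, an oxysterol-binding protein, was at 1.33 and 1.11. Nrg4, a secreted ligand of the receptor ErbB4, had signals of 1603 and 1480 in the control pool and of 3703 and 3054 in the GALP pool (1.21 and 1.05). The predicted gene Gm43305 had a mean of 1.08. Ubd, a ubiquitin-like protein that inflammation induces, was at 1.15 and 0.82, and Lyve1, a marker of sinusoidal and lymphatic endothelium, was at 0.95 and 0.61. For Gipc2 and Slc52a3, a riboflavin transporter, the control pool was not well above background, and they were at least 2.40-fold and 1.99-fold higher.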

How the data were processed

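RNA of each pool was labelled and hybridised to Agilent 4x44K whole mouse genome arrays, of 43379 spots each, on 1 slide. Per the file headers, the authors used Feature Extraction 12.0.3.1 (the labels name version 11.0.1.1), with background subtraction followed by LOWESS dye normalization. The deposited intensity of each channel is this processed signal. The deposited log10 ratio is that of Cy5 over Cy3, and the deposited p-value is that of the software's error model for 1 spot on 1 array. In the series table the deposited values equal these log10 ratios with GALP as numerator, except where the software had written 0.

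The log10 ratios were turned to GALP over control by the dye labels and converted to log2. Spots with an outlier mark (248 and 340) were left out, spots of a probe were averaged, and a gene was given by its kept probe with the highest mean signal. No spot was saturated. The arrays carry the same extracts, so there is 1 replicate and no test, and precision is limited by having only these arrays. Where 1 side was not well above background on both arrays, a limit was computed from the processed signals after Aquantile normalization in limma 3.58.1 (R 4.3.3), taking as floor the lowest signal well above background on each array. The call rule was also run on simulated data, with signals from these genes and normal noise scaled from their median half-difference. A dye effect of assumed size was added. The rule called 40 of 11326 unchanged genes. It found 44 of 50 genes at a log2 ratio of 1.0 and 44 of 50 at −1.0. These counts check the steps under that noise and are not error rates of the calls in the real data.

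The text names the 15 largest genes each way that were measured on both sides, the 5 largest limits each way, and of each list the members past the fold and bright members. Values of a few of these genes are not reported here. The gene lists and marker lists were chosen with earlier results of these data known. The accessions of 29416 probes (71.4%) were found in RefSeq, and probe coordinates refer to mm9. Alternatives tried were loess after normexp correction (offset 50), median centring, the series table, outlier spots kept, both channels above background, no filter on signal, a fold of 2, a fold of 1.5 each way, the mean of the arrays, the software's p-value, probes in place of genes, the mean of the probes, and each array alone. Calculations ran in Python 3.11.15.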

Additional observations from a re-analysis of the deposited data

Results flagged for a closer look

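Both arrays of the less weight loss pool lay on one side of the control and both arrays of the greater weight loss pool on the other for 14 of the largest genes. The difference between the pools was not tested, and both share the control pool. As the log2 ratio of the less weight loss pool minus that of the greater, the pancreas genes were 6.20 apart for Ins2, 4.93 for Sycn and 5.05 for Cela3b. Ins2 in the greater weight loss pool was not well above background on either array, so its difference is a value against background and not a measured size. The trefoil factor Tff3 differed by −3.04. The muscle genes differed by −3.15 for Tnnc2, −3.13 for Myl1, −3.21 for Tnnt3, −2.98 for Acta1, −2.68 for Cox8b, −2.92 for Tnni2, −2.37 for Fabp3, −2.30 for Mb, −2.22 for Cox6a2 and −2.68 for Myh8, which was not well above background in the less weight loss pool. For the muscle genes the mean of the greater weight loss pool lay within 0.38 of the control, so the sign there is that of small ratios. Single arrays reached up to 0.67 (Myh8).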

How the results depend on the processing

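Among the 229 genes that the rule names, no called gene turned direction under the alternatives run. Several settings could not turn one, because a call already needs the same direction on both arrays. These were the series table, the fold and p-value settings, the mean of the arrays and each array alone. Of the 2037 values of the 229 genes, 1890 moved by less than the spread between the arrays and 147 by more. The counts of higher and lower genes moved with the setting. They were 22 and 59 with normexp correction and loess, whose offset of 50 draws dim ratios toward 0, and 22 of the 98 and 54 of the 238 genes were shared with the main call. They were 283 and 416 with no filter on signal, 16 and 51 with a fold of 2, and 206 and 513 when only the mean of the arrays had to pass. With 1.5-fold each way 129 were lower, and with the software's p-value 110 were lower. Each array alone gave 300 to 509 higher and 660 to 1274 lower genes. Leaving out the marker genes of pancreas, stomach and intestine and skeletal muscle, chosen after the data were seen, gave 86 and 224. Genes of these tissues outside the marker lists, such as Sycn, Myh2 and Mb, stayed in these counts. The counts therefore do not give the whole part of other tissues. The remaining settings stayed within 1.5 times the main counts. No paired analysis was possible because each group is 1 pool. Genes not well above background on either side were not measured, and a single pool leaves the variation between mice unknown.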

Other observations

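Groups noticed after the values were seen are given here as values. Immunoglobulin chains were lower in the less weight loss pool. The 23 kept entries were taken by the description in the array files, together with Iglv1 and Jchain. Of these, 16 were lower (against 2.06% of all genes) and 1 was higher (against 0.85%). As the group was chosen after its values were seen, these counts are a description only. The median log2 ratio was −0.98, and −0.83 in the greater weight loss pool. Several entries were not well above background in 1 of the pools, so the median includes values taken against background. The heavy constant mu chain, the brightest of them, was at −0.77 and −1.12, a second entry of the same chain was at −0.92 and −0.38 and not past the fold, and Jchain, which links antibody chains in plasma cells, was at −0.61 and −1.45. Variable segments resemble each other and a probe may bind several. The B cell marker Ms4a1 was lower too (−0.97 and −1.02), whereas Cd79a was not well above background on either side.

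Of 7 Mup genes kept, 6 were lower (against 2.06% of all genes), with means from −1.07 to −0.65. Mup6 was at −0.30 and −1.27, so only 1 of its arrays was past the fold.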
